A study of Mus musculus with 12 samples.

Results

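The apolipoproteins are the protein coat of the lipid particles that the liver secretes and takes up again. Expression of 9 apolipoprotein genes (Apob, Apoe, Apoa1, Apoa2, Apoa4, Apoa5, Apoc1, Apoc2 and Apoc3) and of Mttp, which encodes the protein that loads lipid onto apolipoprotein B, was measured by RNA-seq in mouse liver. The genes were taken by their symbols, and the 10 chosen are among 16239 named genes in the files. All 10 passed the filter on low counts and were tested. Libraries fell into 4 groups of 3 by diet and genotype. In the HF knockout group, mice that lacked TSP1 (thrombospondin 1, a secreted matrix protein encoded by Thbs1) in macrophages were kept on an HF diet. The HF floxed group held TSP1 floxed mice, labelled WT, on the HF diet. The LF knockout and LF floxed groups held the same 2 genotypes on an LF diet. All mice were 129/B6, 10 months old and 8 months on their diet. The labels do not name the Cre driver, the floxed exons, the composition of the diets or the animals behind each replicate number. Each p-value reflects how far libraries within a group differ, pooled over the 4 groups in 1 fit. This spread may be partly technical.

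Hepatocytes build VLDL around apolipoprotein B in the endoplasmic reticulum, where the MTP protein transfers triglyceride to it, and secrete it into plasma. On circulating particles, lipoprotein lipase releases fatty acids, with apolipoprotein C2 as its cofactor, apolipoprotein C3 as an inhibitor and apolipoprotein A5 as an activator of this step, and apolipoprotein E then directs the remnants to liver receptors. Apolipoproteins A1 and A2 form the core of HDL, which carries cholesterol back to the liver.

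Each library held 16131506 to 16536016 expected counts. The knockout labels could not be checked at the level of whole liver, because Thbs1 was low everywhere, with 0.16, 1.42 and 1.63 FPKM in HF knockout against 0.75, 0.75 and 0.31 FPKM in HF floxed libraries, and 0.08, 0.55 and 0.55 FPKM in LF knockout against 0.11, 0.06 and 0.07 FPKM in LF floxed libraries. Thbs1 was thus not lower in libraries labelled knockout, and every direction drawn between genotypes below is one between labels. Replicates 2 and 3 of LF knockout, and replicates 1 and 2 of HF floxed, were nearly identical (chi-square per gene of 2.85 and 8.87, against at least 50.7 in other pairs of 1 group). These pairs differed by more than sampling noise and were kept as separate libraries, but p-values would be too small if a pair came from 1 animal. HF knockout replicate 2 stood apart from all other libraries. Its log2 values correlated with those of the other HF knockout libraries at r = 0.78 and 0.82. Its summed FPKM over 20 secreted hepatocyte proteins other than apolipoproteins was 156859, against 62618 to 93758 in the other 11 libraries, and its Spp1 (osteopontin) level was 743 FPKM against 17.7 to 103 FPKM. HF knockout replicate 3 had a summed FPKM of 521 over 8 neutrophil markers, against 1.75 to 11.96 in the other 11 libraries.

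Per length, levels of the 10 genes ran from Mttp, with a median of 54.7 FPKM over the 12 libraries, to Apoe, with a median of 17054 FPKM. The order by median FPKM was Apoe, Apoa2, Apoa1, Apoc1, Apoc3, Apoa4, Apoc2, Apoa5, Apob and Mttp. Neighbours in this order overlapped over the 12 libraries at all but 2 steps. The highest Apoc3 library (5243 FPKM) lay just under the lowest Apoc1 library (5260 FPKM), and the highest Mttp library (67.5 FPKM) lay under the lowest Apob library (142 FPKM). Apoe ranked between 2 and 6 among all genes of a library by FPKM. Together the 10 genes took 4.81 to 7.31% of the counts of named genes, and 4.74 to 6.03% without Apoa4, a narrower range.

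**Figure D1:**
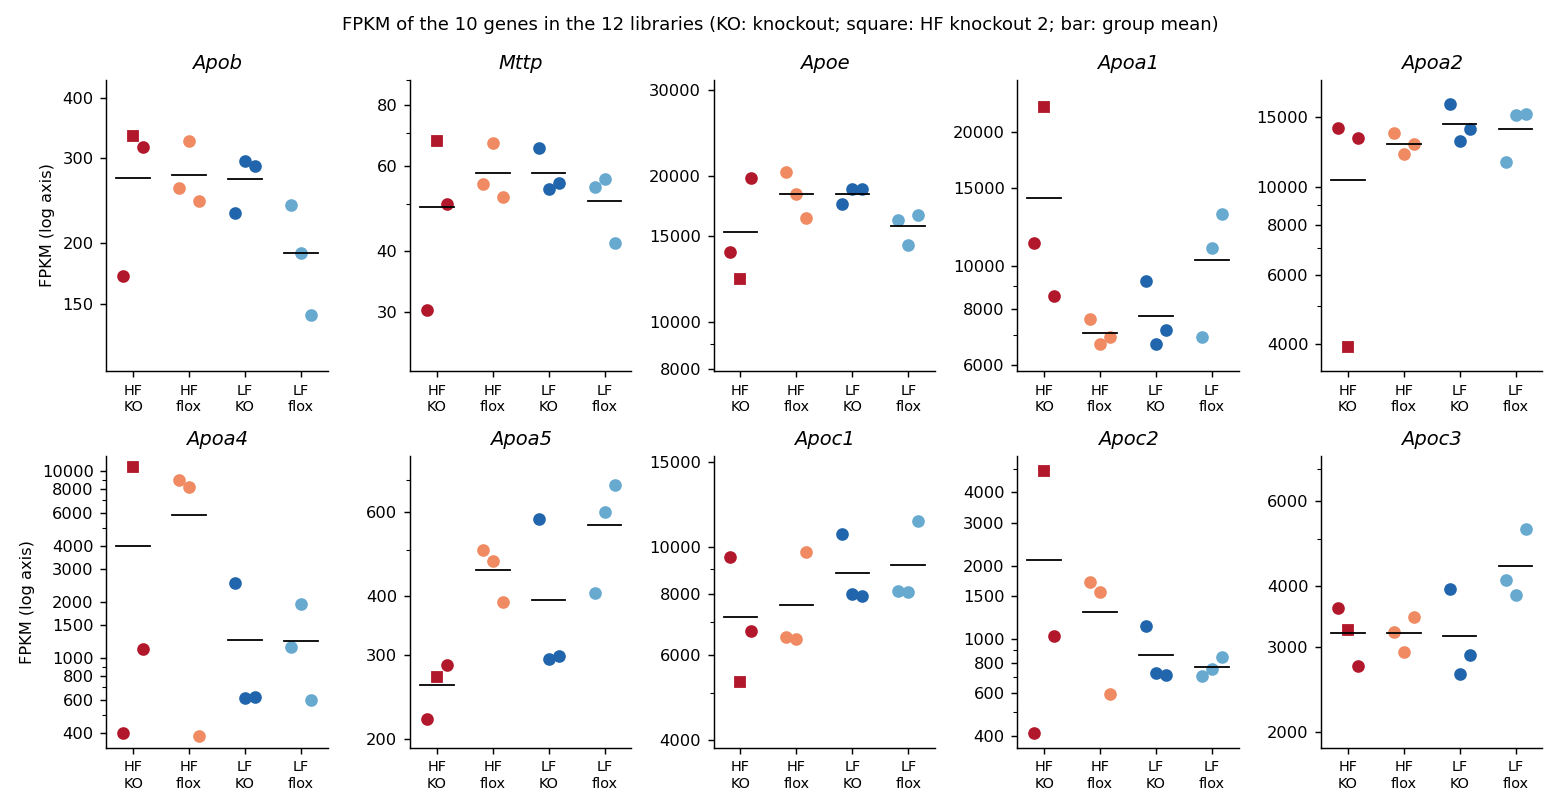
FPKM of each gene on a log axis in the 12 libraries, with the 3 libraries of each group as points (replicates 1, 2 and 3 from left to right), HF knockout replicate 2 as a square and the group mean as a bar. Apoa4 and Apoc2 are the most variable, Apoe the least, and the square is the extreme point for Apoa1, Apoa2, Apoa4, Apoc2, Apob, Apoc1, Apoe and Mttp.

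None of the 10 genes passed edgeR's quasi-likelihood test at a false discovery rate of 5%, although Apoa1, Apoa4, Apoa5, Apoc2 and Apoc3 each had a fitted fold change above 1.5, up or down, in at least 1 pair of groups. The count was 0 of 10 in HF floxed against LF floxed (0% of all 12587 genes tested passed), in HF knockout against LF knockout (0%), in HF knockout against HF floxed (0%), in LF knockout against LF floxed (0.0159%), for the diet averaged over genotypes (0.00794%) and for the interaction of diet and genotype (0.0159%). At an unadjusted p under 0.05, 1 of 10 passed in HF floxed against LF floxed (12.2% of all genes), HF knockout against LF knockout (12.2%), HF knockout against HF floxed (7.65%), the averaged diet comparison (15.2%) and the interaction (9.55%), and 0 of 10 in LF knockout against LF floxed (5.13%). DESeq2 and limma also called 0 of 10 in each of the 6 comparisons. For HF floxed against LF floxed, 3 of the genes were higher and 7 lower, with a median log2 fold change of -0.24 beside 0.00 over all genes tested. The medians were -0.11 for HF knockout against LF knockout, -0.04 for HF knockout against HF floxed and -0.11 for LF knockout against LF floxed, beside 0.03, 0.03 and -0.02 over all genes. For these comparisons in the same order, limma on log2(FPKM + 1) gave medians of 0.04, -0.17, -0.19 and 0.00. The lean to lower values in HF floxed against LF floxed thus depended on the scaling. The intervals left room for sizeable differences. In the pairwise comparisons, SEs on the log2 scale were 0.24 to 0.45 for 8 genes and up to 0.65 for Apoc2 and 1.20 for Apoa4. For the interaction they reached 0.91 for Apoc2 and 1.65 for Apoa4. The coefficient of variation between libraries (edgeR, over all genes) was 52.9% in HF knockout, against 23.3 to 28.2% in the other groups. As the fit pools this spread, HF knockout replicate 2 also entered SEs of comparisons without its group. For Apoa2 in HF floxed against LF floxed the SE was 0.45, and 0.25 without that replicate.

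**Figure D2:**
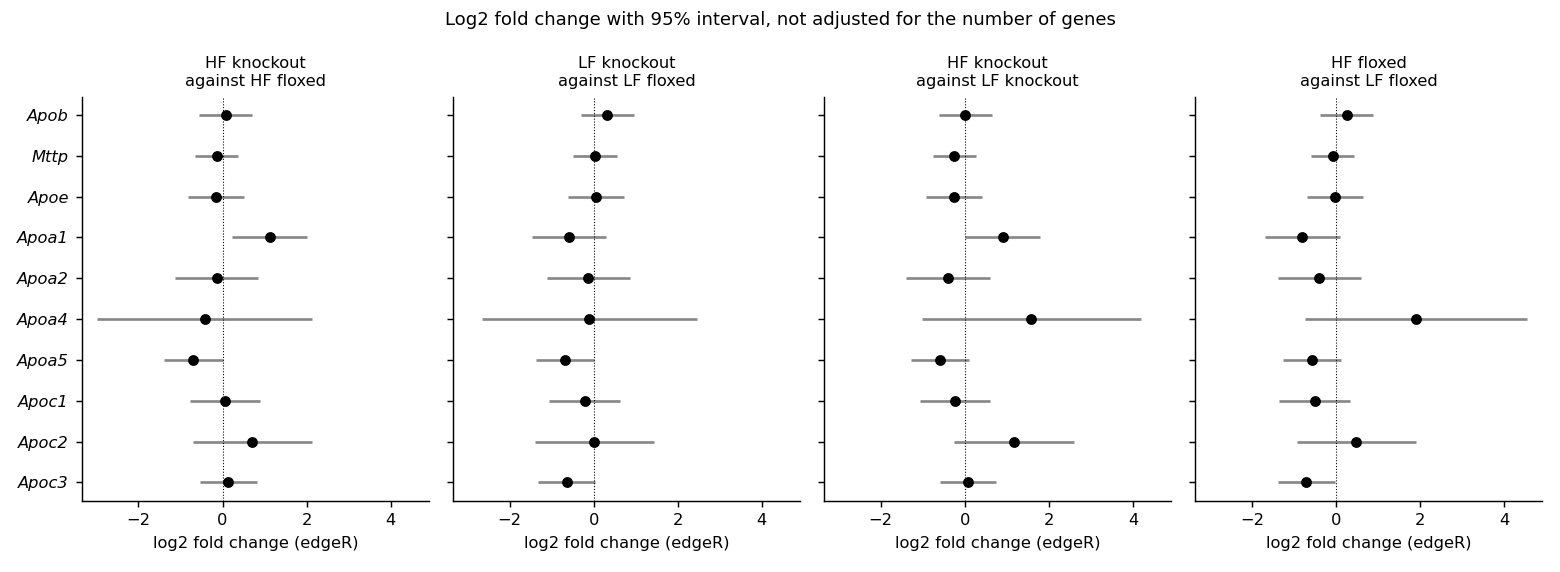
Log2 fold changes from edgeR with 95% intervals, not adjusted for the number of genes, for the 10 genes (rows) in the 4 pairwise comparisons (panels), each labelled with the numerator group first. Apoa4 has the widest intervals, and Apoa1 in HF knockout against HF floxed (1.12) is the farthest from 0 relative to its interval.

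Apob, whose product is the structural protein of VLDL, had 171, 333 and 317 FPKM in HF knockout libraries (replicates 1, 2 and 3, the order kept throughout), 260, 325 and 245 FPKM in HF floxed, 231, 296 and 290 FPKM in LF knockout and 240, 191 and 142 FPKM in LF floxed libraries. All 3 HF floxed libraries lay above all 3 LF floxed libraries, by 245 against 240 FPKM at the closest. FPKM groups without overlap were found for 2 of the 10 genes in this comparison and for 26.9% of all genes. The other pairs of groups overlapped. The fitted log2 fold change of HF floxed against LF floxed was 0.26 (SE 0.29, edgeR adjusted p = 0.738). Mttp had 30.2, 67.5 and 50.0 FPKM in HF knockout, 55.2, 66.8 and 51.8 FPKM in HF floxed, 65.2, 53.7 and 55.4 FPKM in LF knockout and 54.2, 56.3 and 41.5 FPKM in LF floxed libraries. Every pair of Mttp groups overlapped, and its largest pairwise log2 fold change was -0.25 (SE 0.24, HF knockout against LF knockout, edgeR adjusted p = 0.704). By the correlation of log2(FPKM + 1) over the 12 libraries, the genes most like Apob among 3905 others were Nckap1 (r = 0.956) and Canx (r = 0.954), which encodes the chaperone calnexin. Those most like Mttp were Gpam (r = 0.931), the first enzyme of triglyceride synthesis, and Etf1 (r = 0.93).

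Transcript length moved with Apob across the libraries. Apob is 13931 bases long in the files and Apoc3 527 bases. As a measure per library, the median deviation of log2(FPKM + 1) from the gene's mean over the 12 libraries was taken over 186 genes of at least 5000 bases, Apob among them, and the median over 615 genes of at most 1000 bases was subtracted. This measure was -0.50, 0.47 and 0.26 in HF knockout, -0.09, 0.16 and -0.01 in HF floxed, -0.09, 0.24 and 0.27 in LF knockout and -0.01, -0.17 and -0.61 in LF floxed libraries. Low values thus mark libraries with relatively less signal from long genes, and LF floxed replicate 3 and HF knockout replicate 1 were lowest. Apob followed the measure with r = 0.955 over the 12 libraries, and Mttp, of 4243 bases, with r = 0.708. Among the short genes the sign was negative for Apoc3 (r = -0.764), Apoc1 (r = -0.744) and Apoa2 (r = -0.564) and positive for Apoc2 (r = 0.533). Apoa1 had r = -0.0896 over the 12 libraries and r = -0.828 without HF knockout replicate 2. In HF floxed against LF floxed, Apob and Apoc3 did not overlap. The measure overlapped between these groups only through LF floxed replicate 1 (-0.01), the LF floxed library with the highest Apob. LF floxed replicates 2 and 3 (-0.17 and -0.61) lay below all HF floxed libraries. These r describe 12 libraries that include the nearly identical pairs. The part of this measure in the group differences was not tested.

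**Figure D3:**
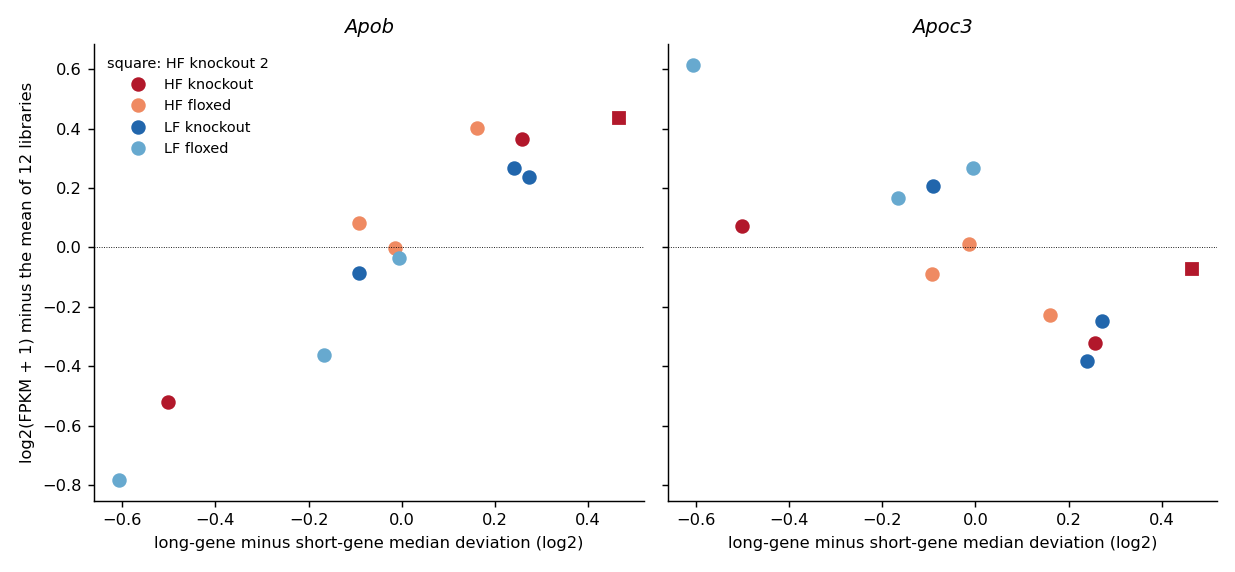
Deviation of Apob (left) and Apoc3 (right) from their mean log2(FPKM + 1) in each library, against the per-library measure of long-gene minus short-gene signal on the log2 scale. Apob is high where long genes are high (r = 0.955) and Apoc3 is low there (r = -0.764), and LF floxed replicate 3 is at the left end in both panels.

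Around VLDL assembly, 24 further genes were examined. In edgeR, 7 were higher and 17 lower in HF floxed than in LF floxed libraries, with a median log2 fold change of -0.09. By mean FPKM most were higher instead. Their summed FPKM was 2590.5 to 2888.5 in HF floxed against 2248.7 to 2371.4 in LF floxed libraries, without overlap. None passed at 5% in this or any of the 5 other comparisons. Tm6sf2, a membrane protein that promotes the lipidation of VLDL, was lowest in p. Its levels were 19.15, 15.04 and 12.12 FPKM in HF floxed libraries against 28.2, 33.1 and 35.5 FPKM in LF floxed libraries, without overlap (log2 fold change -1.34, SE 0.32, edgeR adjusted p = 0.215). In HF knockout libraries it had 24.99, 40.94 and 19.38 FPKM, all above the HF floxed libraries (log2 fold change 1.02, SE 0.32, edgeR adjusted p = 0.598). Apobec1, the enzyme that edits the Apob transcript to the shorter ApoB48 form, had 12.4, 13.1 and 20.9 FPKM in HF knockout against 7.98, 7.96 and 6.91 FPKM in LF knockout libraries, again without overlap (log2 fold change 1.03, SE 0.25, edgeR adjusted p = 0.344). Expression per gene does not show how much of the Apob transcript was edited.

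Apoe, the ligand for remnant uptake, is made by hepatocytes and by macrophages. It was the steadiest of the 10 genes, with an SD of 0.22 on the log2(FPKM + 1) scale over the 12 libraries, beside a median of 0.29 for the 3915 genes averaging at least 10 FPKM. It had 13892, 12221 and 19786 FPKM in HF knockout, 20392, 18308 and 16335 FPKM in HF floxed, 17490, 18755 and 18825 FPKM in LF knockout and 16204, 14397 and 16618 FPKM in LF floxed libraries. The LF knockout libraries all lay above the LF floxed libraries. Groups without overlap, in either direction, were seen for 1 of the 10 genes in this comparison and for 18.2% of all genes. The fitted difference was small, with a log2 fold change of 0.06 (SE 0.30, edgeR adjusted p = 0.99). In whole liver, a change in the number of cells of a type and a change in RNA per cell cannot be told apart. Summed FPKM of 11 Kupffer cell markers, the resident macrophages of liver, ranged from 179 to 720 in HF knockout, 173 to 394 in HF floxed, 146 to 219 in LF knockout and 109 to 332 in LF floxed libraries, and their part in the Apoe level was not tested. Closest to Apoe by correlation were Slc25a20 (r = 0.963), the carnitine carrier of mitochondria, and Wfdc2 (r = 0.948).

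Apoc1, which inhibits receptor uptake of lipoproteins and lies next to Apoe on chromosome 7, had 9550, 5260 and 6712 FPKM in HF knockout, 6531, 6471 and 9764 FPKM in HF floxed, 10634, 8007 and 7919 FPKM in LF knockout and 8141, 8102 and 11306 FPKM in LF floxed libraries. All pairs of Apoc1 groups overlapped. Both HF groups had 2 libraries below every LF library and 1 library inside their range. Averaged over genotypes the diet log2 fold change was -0.37 (SE 0.27, edgeR adjusted p = 0.542). The libraries inside the LF range, HF floxed replicate 3 and HF knockout replicate 1, are also those whose deposited files are named in another form. Without them the value was -0.78 (SE 0.20, edgeR adjusted p = 0.0534), and over 21 alternatives its adjusted p ranged from 0.0534 to 0.77. Ces2a (r = 0.911) and Aspdh (r = 0.903) were the genes most like Apoc1.

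Among genes of receptor uptake and lipolysis, 0 of 16 passed in any of the 6 comparisons, and HF floxed against LF floxed libraries gave 9 higher and 7 lower (median log2 fold change 0.09). Vldlr, the VLDL receptor, was low throughout, with 1.19, 1.02 and 0.46 FPKM in HF floxed against 0.17, 0.21 and 0.12 FPKM in LF floxed libraries (log2 fold change 2.12, SE 0.72, edgeR adjusted p = 0.308). Lpl, lipoprotein lipase, had 5.62, 41.0 and 16.5 FPKM in HF knockout against 2.10, 5.59 and 5.66 FPKM in LF knockout libraries (log2 fold change 2.22, SE 0.72, edgeR adjusted p = 0.344). These groups overlapped narrowly, and HF knockout replicate 2 was the highest of all 12 libraries.

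Apoa1, the main protein of HDL, had 11266, 22760 and 8579 FPKM in HF knockout libraries, 7600, 6681 and 6924 FPKM in HF floxed, 9265, 6676 and 7181 FPKM in LF knockout and 6916, 10973 and 13090 FPKM in LF floxed libraries. The HF knockout libraries all lay above the HF floxed libraries, while the other pairs of groups overlapped. Groups without overlap were seen for 2 of the 10 genes in this comparison and for 9.33% of all genes. The log2 fold change of HF knockout against HF floxed was 1.12 (SE 0.41, edgeR adjusted p = 0.606), and 0.69 (SE 0.34, adjusted p = 0.662) without HF knockout replicate 2, with adjusted p of 0.132 to 0.991 over 22 alternatives. Against LF knockout, HF knockout libraries gave 0.90 (SE 0.41, adjusted p = 0.405), and 0.47 without that replicate. HF floxed against LF floxed ran the other way, at -0.80 (SE 0.40, adjusted p = 0.444). The interaction was 1.70 (SE 0.57, unadjusted p = 0.0123, edgeR adjusted p = 0.434), and 1.27 without HF knockout replicate 2.

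Other secreted hepatocyte proteins ran alongside Apoa1. Of 20 such genes that are not apolipoproteins, 19 were higher in HF knockout than in HF floxed libraries in edgeR (median log2 fold change 0.84). In HF floxed against LF floxed libraries 19 were lower (median -0.58). By mean FPKM a few of these signs were opposite. None of the 20 passed at 5%. Their summed FPKM was 83249, 156859 and 82487 in HF knockout against 65170, 62618 and 66105 in HF floxed libraries, without overlap. Alb (albumin), the largest part of these sums, did overlap. It had 20593, 72054 and 34961 FPKM in HF knockout against 24826, 24583 and 21912 FPKM in HF floxed libraries. The genes most like Apoa1 across the 12 libraries were Kng1 (r = 0.981) and Ahsg (r = 0.945), both of which are on that list. A list of 11 circadian clock genes and clock targets also differed between libraries. Its summed FPKM was 204 and 147 in LF floxed replicates 2 and 3. It was 196 in LF knockout replicate 1 and 106 in HF knockout replicate 1. Every other library had 39.0 to 71.0. Arntl and Npas2, on this list, were instead lowest in the libraries with high sums. After HF knockout replicate 2, those libraries also had the highest Apoa1. They are unevenly spread over the groups. The part of either movement in the Apoa1 differences was not tested.

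Apoa2, the second protein of HDL, was nearly level outside 1 library. It had 14065, 3928 and 13304 FPKM in HF knockout, 13724, 12098 and 12831 FPKM in HF floxed, 16250, 13094 and 14006 FPKM in LF knockout and 11538, 15243 and 15306 FPKM in LF floxed libraries. Apart from HF knockout replicate 2, the lowest of all, its libraries stayed within 1.41-fold of each other. The log2 fold change of HF knockout against HF floxed was -0.14 (SE 0.45, edgeR adjusted p = 0.961), and 0.27 without that replicate. The ratio of Apoa1 to Apoa2 FPKM was 0.80, 5.80 and 0.64 in HF knockout, 0.55, 0.55 and 0.54 in HF floxed, 0.57, 0.51 and 0.51 in LF knockout and 0.60, 0.72 and 0.86 in LF floxed libraries. One library thus set the sign of the relation between both genes, with r = -0.633 over 12 libraries and 0.737 over the other 11. The genes most like Apoa2, Cyp27a1 (r = 0.982) and Mettl7b (r = 0.982), also leaned on that library, with r of 0.705 and 0.729 without it.

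**Figure D4:**
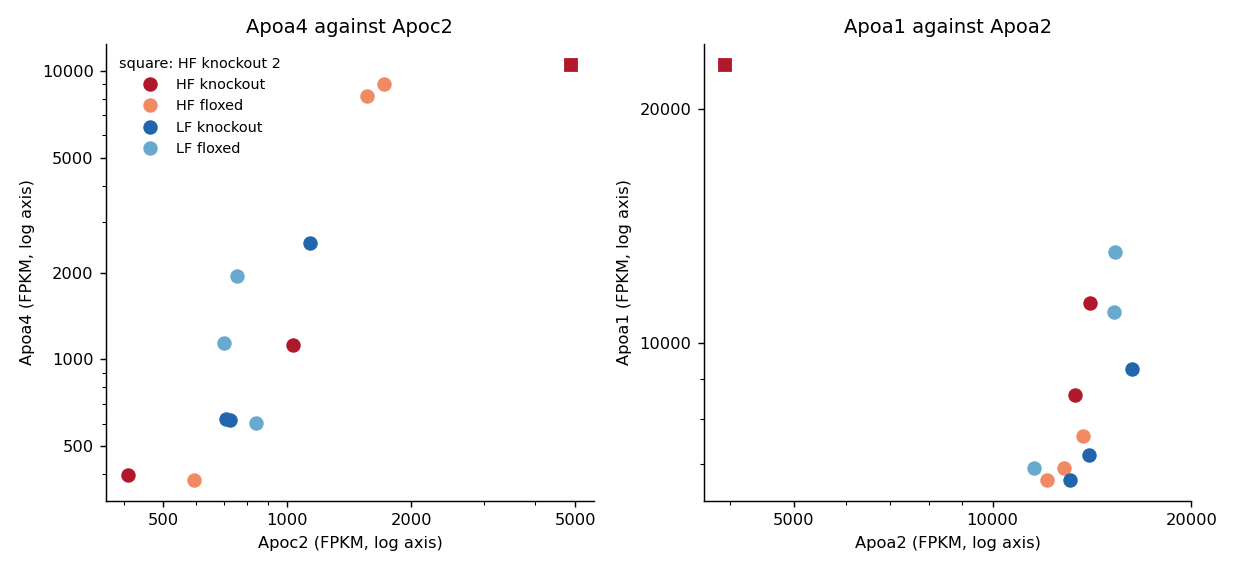
FPKM of Apoa4 against Apoc2 (left) and of Apoa1 against Apoa2 (right) in the 12 libraries, on log axes and coloured by group, with HF knockout replicate 2 as a square. Apoa4 and Apoc2 are high in the same 3 HF libraries, and the square lies far from the other 11 libraries in the right panel, with Apoa1 at 22760 and Apoa2 at 3928 FPKM.

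Of 11 further genes of HDL assembly and remodelling, 2 were higher and 9 lower in HF floxed than in LF floxed libraries in edgeR (median log2 fold change -0.26). By mean FPKM they were nearly evenly split. None passed in any of the 6 comparisons. Abcg5 and Abcg8 encode the partner proteins of a transporter that moves sterols into bile. Abcg5 had 21.6, 22.8 and 30.5 FPKM in HF floxed against 34.1, 35.9 and 35.8 FPKM in LF floxed libraries (log2 fold change -0.74, SE 0.24, edgeR adjusted p = 0.304), and Abcg8 had 18.2, 17.6 and 22.2 FPKM against 30.3, 33.0 and 25.5 FPKM (log2 fold change -0.83, SE 0.30, adjusted p = 0.331). Neither pair of groups overlapped. Scarb1, the HDL receptor of liver, had 106, 207 and 82.1 FPKM in HF knockout against 93.3, 86.0 and 90.0 FPKM in HF floxed libraries (log2 fold change 0.67, SE 0.30, edgeR adjusted p = 0.65), with overlap. Apom, an HDL protein that carries sphingosine-1-phosphate, was highest in HF knockout replicate 2, at 228, 700 and 126 FPKM in HF knockout against 138.2, 123.3 and 125.9 FPKM in HF floxed libraries (log2 fold change 1.54, SE 0.58, edgeR adjusted p = 0.607). Clu, also named apolipoprotein J, had 2035, 2200 and 1158 FPKM in HF knockout against 957, 1026 and 1105 FPKM in LF knockout libraries, without overlap (log2 fold change 0.88, SE 0.31, edgeR adjusted p = 0.346). Of 15 tested apolipoproteins and relatives outside the 10 genes, of 21 listed and 20 found in the files, 6 were higher and 9 lower in that comparison.

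Apoa4 and Apoc2 were the most variable of the 10 genes and were high in the same libraries. Apoa4 encodes a protein of chylomicrons, VLDL and HDL that the intestine makes in bulk, and mouse liver makes as well. Apoc2 encodes the cofactor of lipoprotein lipase. Apoa4 lies on chromosome 9 in the order Apoa1, Apoc3, Apoa4 and Apoa5, and Apoc2 on chromosome 7 in the order Apoc2, Apoc4, Apoc1 and Apoe. The 250 bases before the start of both genes, and of Apoa1 for comparison, are shown from RefSeq promoters on GRCm38.p6, a later build than the mm9 of the submitters' processing notes. They are from chr9:46240594-46240843 on the plus strand for Apoa4, from chr7:19677942-19678191 on the minus strand for Apoc2 and from chr9:46228380-46228629 on the plus strand for Apoa1. Capitals mark matches, on either strand, to any of 5 spellings that were searched for. AGGTCA is the half-site bound by many nuclear receptors. TGACG is the half-site of the cyclic AMP response element. TATAAA is the usual spelling of the TATA box. The hepatocyte nuclear receptor HNF4 was searched with the spelling CAAAGTCCA. A second spelling for the same receptor was CAAAGTTCA. None of the matches shown overlap each other.

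Apoa4: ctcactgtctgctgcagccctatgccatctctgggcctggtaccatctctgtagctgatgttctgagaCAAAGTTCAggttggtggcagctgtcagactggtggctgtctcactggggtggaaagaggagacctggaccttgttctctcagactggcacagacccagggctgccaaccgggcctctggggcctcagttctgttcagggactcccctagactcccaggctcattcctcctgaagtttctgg
Apoc2: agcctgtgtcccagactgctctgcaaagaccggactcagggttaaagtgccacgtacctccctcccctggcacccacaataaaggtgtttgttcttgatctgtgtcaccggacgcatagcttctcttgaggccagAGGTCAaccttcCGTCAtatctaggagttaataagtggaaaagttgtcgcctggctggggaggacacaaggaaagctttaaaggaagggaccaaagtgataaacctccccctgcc
Apoa1: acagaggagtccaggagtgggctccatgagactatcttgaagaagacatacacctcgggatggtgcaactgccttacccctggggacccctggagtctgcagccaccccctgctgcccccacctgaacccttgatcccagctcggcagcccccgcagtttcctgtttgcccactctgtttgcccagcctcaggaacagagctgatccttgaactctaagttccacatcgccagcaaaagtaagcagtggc

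The Apoa4 window held CAAAGTTCA on the gene's strand, beginning 182 bases before the start, a spelling found in 0.3348% of the 32851 windows of that length in the promoter table. The Apoc2 window held AGGTCA on its own strand at 115 bases (14.02% of windows) and TGACG on the opposite strand at 103 bases (17.77%). No searched motif was present in the Apoa1 window. The TATA box spelling (12.37% of windows) and the first HNF4 spelling (0.3835%) were in none of these 3. Apoa4 and Apoc2 shared none of the searched motifs. The second HNF4 spelling was added with the sequences in view, and a match of letters does not show that a factor binds there. Promoters of 8 of the 10 genes were in the table. Apoc1 and Apoc3 were not among them.

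Apoa4 had 397, 10492 and 1124 FPKM in HF knockout, 8994, 8210 and 382 FPKM in HF floxed, 2541, 615 and 622 FPKM in LF knockout and 1144, 1952 and 602 FPKM in LF floxed libraries. Within the HF groups the libraries spread 26.4-fold (knockout) and 23.5-fold (floxed), against 4.13-fold and 3.24-fold in the LF groups. In 3 HF libraries Apoa4 stood above every LF library, and in HF floxed replicate 3 and HF knockout replicate 1 below all of them. The log2 fold change was 1.90 (SE 1.20, edgeR adjusted p = 0.538) in HF floxed against LF floxed and 1.58 (SE 1.19, adjusted p = 0.616) in HF knockout against LF knockout libraries. Without HF knockout replicate 2 the second value was -0.79 (SE 1.02). HF floxed replicates 1 and 2, the other high libraries, are a nearly identical pair. Averaged over genotypes, HF against LF gave 1.74 (SE 0.85, edgeR adjusted p = 0.358), 2.26 (SE 0.66, adjusted p = 0.0688) without HF floxed replicate 3 and HF knockout replicate 1, and 0.56 (SE 0.66, adjusted p = 0.775) without HF knockout replicate 2, the ends of its adjusted p over 21 alternatives. Markers of enterocytes, the intestinal cells that make most Apoa4, were also summed. Of 8 listed markers 3 were in the files, with a summed FPKM of 47.79 to 95.04 in HF knockout, 85.2 to 148 in HF floxed, 99.8 to 131 in LF knockout and 66.5 to 87.8 in LF floxed libraries. Of the 3 libraries with high Apoa4, HF floxed replicates 1 and 2 had the highest sums of all 12, at 134.7 and 148, and HF knockout replicate 2 had 65.1, below every LF library. Nearly all of each sum was Fabp2, which liver also expresses, and Vil1 reached at most 0.69 FPKM. Summed FPKM of 5 cholangiocyte markers (bile duct cells) was 755 in HF knockout replicate 2 and 99.96 and 108.78 in HF floxed replicates 1 and 2, the 3 libraries high in Apoa4, against 21.8 to 50.2 in the other 9. Spp1, which macrophages also express, made up most of these sums in the 3 libraries. Epcam was also highest there, at 2.25 FPKM in HF knockout replicate 2 and 1.3 and 1.53 FPKM in HF floxed replicates 1 and 2, against at most 1.12 FPKM in the other 9, while for Krt7, Krt19 and Sox9 the 3 libraries overlapped the others. The part of either marker list in the Apoa4 and Apoc2 levels was not tested.

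Apoc2 had 411, 4898 and 1033 FPKM in HF knockout, 1718, 1561 and 594 FPKM in HF floxed, 1135, 725 and 709 FPKM in LF knockout and 702, 753 and 840 FPKM in LF floxed libraries. The same 3 HF libraries as for Apoa4 were the highest, and the same 2 the lowest. The log2 fold change was 1.17 (SE 0.65, edgeR adjusted p = 0.491) in HF knockout against LF knockout libraries, and -0.26 (SE 0.40) without HF knockout replicate 2. In HF knockout against HF floxed libraries it was 0.71 (SE 0.65, adjusted p = 0.816), and -0.72 (SE 0.40) without that replicate. Apoa4 and Apoc2 correlated at r = 0.873 over the 12 libraries, 0.898 without HF knockout replicate 2 and 0.878 over 10 values with the nearly identical pairs averaged. In HF knockout replicate 2, where Apoc2 was highest, Apoc4 had 592 FPKM, against 1098 to 2148 FPKM in the other 11 libraries, and Apoc1 and Apoe were also at their lowest. Apoc2 correlated with Apoc1 at r = -0.728 over the 12 libraries and -0.536 without HF knockout replicate 2. With Apoe, r was -0.17 over the 12 libraries and 0.708 without that replicate, which thus turned its sign. Apoc4 lies beside Apoc2, and how the authors' counting divided reads between overlapping transcripts is not given in the sources used here.

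The genes most like Apoc2 by the same correlation were Zfp296 (r = 0.985) and Tnfrsf12a (r = 0.966), a receptor of the TNF family. Both moved over a wide range, from 15.96 to 396 FPKM and from 5.05 to 114 FPKM. The genes most like Apoa4 were H2-Q10 (r = 0.96), an MHC class I gene of liver that ranged from 1016 to 2714 FPKM, and Pgd (r = 0.958), an enzyme of the pentose phosphate pathway that ranged from 13.02 to 43.74 FPKM.

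Apoc3, the inhibitor of lipoprotein lipase, had 3603, 3254 and 2741 FPKM in HF knockout, 3220, 2924 and 3449 FPKM in HF floxed, 3951, 2631 and 2885 FPKM in LF knockout and 4121, 3843 and 5243 FPKM in LF floxed libraries. The LF floxed group was the highest, and all HF floxed libraries lay below all LF floxed libraries. The log2 fold change of HF floxed against LF floxed was -0.71 (SE 0.31, unadjusted p = 0.0415, edgeR adjusted p = 0.391). LF knockout against LF floxed libraries gave -0.64 (SE 0.31, adjusted p = 0.929), with 1 LF knockout library inside the LF floxed range. HF knockout against HF floxed libraries gave 0.14 (SE 0.31, adjusted p = 0.936). Closest to Apoc3 were the ribosomal protein genes Rpl35a (r = 0.909) and Rpl7a (r = 0.906). Ratios of Apoc2, the activator, to Apoc3, the inhibitor, were 0.11, 1.505 and 0.38 in HF knockout, 0.53, 0.53 and 0.17 in HF floxed, 0.29, 0.28 and 0.25 in LF knockout and 0.17, 0.20 and 0.16 in LF floxed libraries. HF knockout replicate 2 was the only library with more Apoc2 than Apoc3 by FPKM.

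Apoa5, which aids lipoprotein lipase and keeps plasma triglyceride low, had 220, 270 and 286 FPKM in HF knockout libraries, 500, 474 and 388 FPKM in HF floxed, 579, 294 and 299 FPKM in LF knockout and 405, 599 and 684 FPKM in LF floxed libraries. It was lower in all 3 HF knockout libraries than in any other library, so that HF knockout overlapped neither HF floxed nor LF knockout. The LF knockout group overlapped the LF floxed group through replicate 1, and its 2 low libraries are a nearly identical pair. Groups without overlap were seen for 1 of the 10 genes in HF knockout against LF knockout, beside 11.6% of all genes. Log2 fold changes were -0.69 (SE 0.32, unadjusted p = 0.0506, edgeR adjusted p = 0.656) in HF knockout against HF floxed and -0.68 (SE 0.32, unadjusted p = 0.0549, adjusted p = 0.929) in LF knockout against LF floxed libraries. By diet they were -0.59 (SE 0.32, adjusted p = 0.473) in knockout and -0.58 (SE 0.32, adjusted p = 0.479) in floxed libraries, and -0.58 (SE 0.22, unadjusted p = 0.0237, adjusted p = 0.268) averaged over genotypes. The interaction was -0.01 (SE 0.45, adjusted p = 0.995). LF knockout replicate 1, at 579 FPKM, decided several of these sizes. Without it the log2 fold change of Apoa5 was -0.14 (SE 0.26, edgeR adjusted p = 0.884) in HF knockout against LF knockout and -1.12 (SE 0.27, adjusted p = 0.272) in LF knockout against LF floxed libraries, while the averaged diet comparison gave -0.36 (SE 0.17, adjusted p = 0.506) and the interaction was 0.45. By counts, LF knockout replicate 1 was closer to LF floxed replicate 2 (chi-square per gene of 30.1) than to LF knockout replicates 2 and 3 (102 and 99.3). LF floxed replicates 2 and 3 and LF knockout replicate 1, highest in Apoa5, also had the highest sums over the clock list. HF knockout replicate 1, next in that sum, had the lowest Apoa5. The part of this in the Apoa5 differences was not tested. Unlike Apoa4 and Apoc2, Apoa5 gave nearly the same values without HF knockout replicate 2, at -0.69 for HF knockout against HF floxed and -0.58 for the averaged diet comparison. The genes most like Apoa5 were Polr1d (r = 0.911) and Dbi (r = 0.91), an acyl-CoA binding protein.

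Of 23 transcription factors and cofactors known to act on apolipoprotein genes, 4 were higher and 19 lower in HF floxed than in LF floxed libraries in edgeR (median log2 fold change -0.28). By mean FPKM they were nearly evenly split in this comparison. In HF knockout against HF floxed libraries edgeR gave 16 higher and 7 lower (median 0.20). None passed at 5% in any of the 6 comparisons. In HF floxed against LF floxed the smallest edgeR adjusted p of this list was 0.177. Mlxipl had 30.3, 29.3 and 17.1 FPKM in HF floxed and 53.9, 47.4 and 46.2 FPKM in LF floxed libraries, without overlap. Nr2f2, a repressor of several apolipoprotein promoters, was not the lowest in p there, with a log2 fold change of -0.66 (SE 0.21, edgeR adjusted p = 0.297). In HF knockout against LF knockout libraries Nr2f2 gave -0.50 (SE 0.21, adjusted p = 0.388). Srebf2, which drives sterol synthesis, gave 0.79 (SE 0.27, adjusted p = 0.344) in HF knockout against LF knockout and 0.69 (SE 0.27, adjusted p = 0.61) in HF knockout against HF floxed libraries. Hnf4a, a main nuclear receptor of hepatocytes, stayed within a narrow range of FPKM, at 111, 112 and 103 in HF knockout, 108, 104 and 102 in HF floxed, 114, 108 and 112 in LF knockout and 108, 94.1 and 93.4 in LF floxed libraries. Hnf4a had 112 FPKM in HF knockout replicate 2 and 108 and 104 FPKM in HF floxed replicates 1 and 2, all high in Apoa4. In HF floxed replicate 3 and HF knockout replicate 1, lowest in Apoa4, it had 102 and 111 FPKM. Expression does not show the activity of its protein, whose part in the Apoa4 level was not tested.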

How the data were processed

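Total RNA of flash-frozen liver was sequenced by BGI, per the labels' protocols, and the submitters' processing notes list genome build mm9. Which aligner, counting tool and strand setting were used is not given in the sources used here. The deposited files give expected counts in the column layout of RSEM, per the file headers, and FPKM values that the authors scaled to gene length and sequencing depth. Genes absent from a file were taken as 0. The 1229 loci without a gene name, 6.65 to 17.33% of the counts per library, were left out. After rounding, the counts of named genes were tested in edgeR 4.0.16 (R 4.3.3, TMM scaling, filterByExpr, quasi-likelihood F test). The settings were 1 fit of the 12 libraries in 4 groups, Benjamini-Hochberg adjustment over 12587 genes and a 5% false discovery rate. This procedure was also run on simulated counts with known changes. The simulation held no outlying library and no nearly identical pairs, so it does not show how the procedure handles these. TMM factors ran from 0.82 to 1.20, so fold changes of counts and of FPKM can differ. They were 1.13, 1.20 and 0.95 in HF floxed against 0.92, 0.93 and 0.96 in LF floxed libraries. In HF knockout they were 0.82, 0.98 and 1.12, and in LF knockout 0.94, 1.05 and 1.05. In HF floxed against LF floxed, fold changes of counts tended to be lower than those of FPKM. Alternatives used DESeq2 1.42.0, limma 3.58.1 on log2(FPKM + 1) or log2(FPKM + 0.1), other filters and library sets. The 10 genes and all gene lists were chosen with earlier results of these data known. Named were the 10 genes, per list up to 4 genes of smallest p in a comparison, and per gene the 2 most correlated genes among those averaging at least 10 FPKM. Thbs1, Spp1, Hnf4a, Apoc4, Arntl, Npas2, Mlxipl and single cell type markers were named after their values were seen. With 3 libraries per group, counting error is small beside the spread between libraries.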

Additional observations from a re-analysis of the deposited data

How the results depend on the processing

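Over 22 alternatives, 0 of the 10 genes passed in any of the 6 comparisons. Of 1300 recomputed log2 fold changes of the 10 genes, 1222 kept their sign and 70 of the 78 sign changes moved by at most 1 SE. The other 8 follow, and their cause was not tested. Mttp in HF floxed against LF floxed turned to 0.19 and 0.20 under limma with pseudocounts of 1 and 0.1. With each library left out in turn, values ranged from -0.79 to 2.68 for Apoa4 and from -0.26 to 1.63 for Apoc2 in HF knockout against LF knockout, from -0.72 to 1.19 for Apoc2 and from -0.37 to 0.41 for Apoc1 in HF knockout against HF floxed, and from -0.74 to 1.16 for Apoc2 and from -0.21 to 0.45 for Apoa5 in the interaction. HF knockout replicate 2 set the low end for Apoa4 and Apoc2, HF knockout replicate 1 that for Apoc1, and LF knockout replicate 1 the high end for Apoa5.

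Counts of genes called over all genes moved more. In the order HF floxed against LF floxed, HF knockout against LF knockout, HF knockout against HF floxed, LF knockout against LF floxed, averaged diet and interaction they were 0, 0, 0, 2, 1 and 2. DESeq2 called 254, 126, 69, 34, 403 and 107. Without HF floxed replicate 3 and HF knockout replicate 1 they were 158, 2, 3, 7, 682 and 5. With each library left out they ranged from 0 to 14, 0 to 10, 0 to 14, 0 to 13, 0 to 7 and 1 to 17. The compared groups alone gave 82, 0, 0 and 11 in the pairwise comparisons. HF floxed against LF floxed gave 1 under limma with pseudocount 0.1, 1 with no filter and 3 with unnamed loci kept. LF knockout against LF floxed gave 0 and 1 under limma with pseudocounts of 1 and 0.1. Unnamed loci kept gave 2 for the averaged diet and 1 for the interaction. Averaging the nearly identical pairs gave 0 in every comparison. With replicate number as a replicate block they were 0, 0, 0, 0, 0 and 1, but the numbers do not pair the libraries, since 3 of 18 same-numbered pairs had deviations correlated above 0.1 (-0.331 to 0.404) and 5 correlated best with their own number. With 3 libraries a group, differences of more than 2 SEs, such as the Apoa1 interaction of 1.70 (SE 0.57), also did not pass.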
